A study of Rattus norvegicus with 9 samples.

Results

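The genes described here build and organise the tight junction: the claudins Cldn1, Cldn3, Cldn4, Cldn7, Cldn9 and Cldn12, occludin (Ocln), the scaffold protein ZO-1 (Tjp1) and the junctional adhesion molecule JAM-A (F11r). They were chosen by symbol, and all 9 symbols stood in the count tables, among 17315 genes. Of the 9, 8 passed the filter on low counts that left 10128 genes to test, and Cldn9 did not. RNA was sequenced from primary cultures of horizontal basal cells, taken from the olfactory epithelium of SD rats and grown to passage 7. Vehicle cultures received 0.1% DMSO and are labelled time 0, and the other cultures received 50 nM phorbol 12-myristate 13-acetate (PMA), which activates protein kinase C, for 6 h or for 12 h. Each of the 3 groups held 3 libraries, and the vehicle libraries were all labelled time 0, so that PMA and time in culture cannot be told apart. No genotype or age stands in the labels. Nor do they state that replicates are separate animals or cultures, and every p-value rests on the spread between libraries, which may be technical.

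Tight junctions are belts of intramembrane strands near the apical border of epithelial cells, where they limit the passage of solutes between neighbouring cells. Claudins form the strands and set which ions pass, occludin and other MARVEL proteins sit in them, JAM-A joins neighbouring membranes, and ZO-1 ties the cytoplasmic tails of these proteins to actin. In the olfactory epithelium the belt lies at the apical surface, while horizontal basal cells lie flat on the basal lamina as a reserve stem cell population that can give rise to the other cells of the tissue.

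RefSeq promoters were at hand for 7 of the 9 genes, those other than Cldn4 and Cldn9, in the build GRCr8. For each gene the first listed promoter of its symbol was searched, and any other start site was not. The hexamer CAGGTG, the E-box that Snail and Zeb repressors of epithelial genes can bind, was searched on both strands in the 250 bases before the start site, with the AP-1 motif TGANTCA, the Grainyhead-like motif AACNNGTT, the Klf and Sp box GGGCGG and the TATA box TATAAA. The E-box lay in 4 of the 7 promoters (4 times in Cldn7, 2 times in Ocln, 1 time each in Cldn3 and F11r), in 15.9% of 33469 rat promoters and in 14.9% of the 7767 promoters of tested genes. These 4 promoters are shown because they hold the E-box, and Snail and Zeb factors known to bind it are followed further on. Cldn1, Cldn12 and Tjp1, whose searched promoters have no E-box, also rose at 6 h, though the Cldn12 rise depends on scaling. Whether the E-box bears on any of these changes was not tested. Each run reads 5′ to 3′ toward the start site. Capitals mark the E-box on either strand and, in F11r, also the AP-1 motif:

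Cldn7 (chr10:55188420-55188669, + strand): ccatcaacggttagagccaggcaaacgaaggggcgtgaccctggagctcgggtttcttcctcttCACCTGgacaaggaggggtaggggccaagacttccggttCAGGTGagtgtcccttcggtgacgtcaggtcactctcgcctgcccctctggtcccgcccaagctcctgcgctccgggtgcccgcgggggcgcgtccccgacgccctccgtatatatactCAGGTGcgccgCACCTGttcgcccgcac

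Ocln (chr2:33441199-33441448, - strand): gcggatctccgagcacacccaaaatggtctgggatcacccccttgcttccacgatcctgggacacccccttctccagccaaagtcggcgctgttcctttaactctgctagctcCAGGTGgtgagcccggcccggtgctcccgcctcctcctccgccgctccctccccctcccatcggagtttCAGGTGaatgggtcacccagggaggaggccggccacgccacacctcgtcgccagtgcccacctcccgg

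Cldn3 (chr12:27346548-27346797, - strand): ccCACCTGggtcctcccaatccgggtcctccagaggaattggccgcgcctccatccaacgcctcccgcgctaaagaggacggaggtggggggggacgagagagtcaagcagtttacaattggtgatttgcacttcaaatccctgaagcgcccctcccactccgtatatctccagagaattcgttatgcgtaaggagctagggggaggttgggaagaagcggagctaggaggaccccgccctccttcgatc

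F11r (chr13:86405979-86406228, + strand): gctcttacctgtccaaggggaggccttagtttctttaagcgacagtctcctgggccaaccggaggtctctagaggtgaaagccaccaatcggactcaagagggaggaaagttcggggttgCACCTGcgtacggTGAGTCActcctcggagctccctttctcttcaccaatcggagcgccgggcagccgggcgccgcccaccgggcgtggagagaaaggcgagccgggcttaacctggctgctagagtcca

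In Cldn7 the E-boxes begin 186, 147, 28 and 17 bases before the start site, in Ocln 137 and 68 bases, in Cldn3 248 bases and in F11r 130 bases. The AP-1 motif, the classic phorbol ester response element, was found in F11r, 117 bases before the start, and in none of the other 6 promoters. It stood in 6.34% of all promoters and in 4.63% of those of tested genes. The Grainyhead-like motif was found in 1 of the 7, that of Tjp1, 146 bases before the start. It stood in 3.6% of all promoters and in 2.86% of those of tested genes. GGGCGG stood in 4 of the 7 (Cldn1, Cldn3, Cldn7 and F11r), in 30.5% of all promoters and in 60.8% of those of tested genes. TATAAA stood in 0 of the 7, in 12.9% of all promoters and in 5.83% of those of tested genes. The matches in these promoters share no bases with one another. A match describes letters only, and a motif missing from this window says nothing of the factor. In the RefSeq gene order Cldn3 and Cldn4 are direct neighbours, as are Ocln and Marveld2, the gene of tricellulin.

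Reads in genes came to 13601635 to 19001819 per library. All 10 horizontal basal cell markers in the tables, among them Krt5, Krt14 and Tp63, were above 1 CPM in every library (CPM is the count of a gene relative to the scaled library total), and their summed level was 23289 to 25606 CPM in vehicle, 10834 to 12399 CPM at 6 h and 9627 to 10918 CPM at 12 h. Most of the drop in the sum came from Krt5 (mean 6827, 402 and 489 CPM in vehicle, at 6 h and at 12 h) and Krt14 (5325, 779 and 1014 CPM). Tp63 (219, 47.9 and 90.7 CPM) and Itga6 (1318, 589 and 942 CPM) were also lower at both times. So were Itgb4 (2084, 774 and 1213 CPM) and Krt15 (60.7, 20.2 and 7.80 CPM). Icam1 went the other way (143, 176 and 359 CPM), and Egfr stood at 45.5, 38.4 and 70.9 CPM. Krt17 (6427, 6573 and 4363 CPM) and Cd44 (1816, 2355 and 1684 CPM) were not lower at 6 h. Markers of other cells were mostly under 1 CPM in every library: 5 of 8 sustentacular and gland genes, all 8 neuronal genes, all 4 respiratory genes, 5 of 7 fibroblast genes, 4 of 6 immune genes and 6 of 7 endothelial genes. The sustentacular enzymes Cyp2g1 and Cyp2a3, the leukocyte gene Ptprc and the endothelial claudin Cldn5 had no read in any library. The summed sustentacular and gland level, most of it the simple epithelial keratin Krt8, went from 1207 to 1412 CPM in vehicle to 1954 to 2015 CPM at 6 h and 2189 to 2530.0 CPM at 12 h, beside the junction genes below. The summed immune level, nearly all of it the lysosomal gene Cd68, went from 18.5 to 21.1 CPM to 68.5 to 71.7 and 80.9 to 92.9 CPM, and the endothelial one, mainly Kdr at 12 h, from 0.129 to 0.478 CPM to 1.40 to 1.87 and 1.91 to 4.25 CPM. The summed fibroblast level went down, from 4.51 to 5.78 CPM to 2.06 to 3.82 and 1.77 to 3.64 CPM. The part of these cells in the junction results was not tested. In bulk RNA, fewer or more cells that express a gene and less or more RNA per cell cannot be told apart.

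The first comparison asks how these genes stood after 6 h of PMA. All 8 tested members were higher than in vehicle by the quasi-likelihood test of edgeR (adjusted p under 0.05 over all tested genes), where 37.8% of all tested genes were called higher and 39% lower (76.8% in either direction). Their log2 fold changes ran from 0.64 to 5.04 with a median of 2.77, against a median of -0.03 over all tested genes. For all 8 the lowest 6 h library lay above the highest vehicle library, which held for 38.6% of all tested genes, with 40.3% wholly lower (79% in either direction). Cldn7 passed the filter only through its PMA libraries, so its direction was set by the filter. Without it 7 of 7 were higher, with a median of 2.23. The claudins Cldn7, Cldn4 and Cldn3 had the largest log2 fold changes, followed by occludin, then F11r, Cldn1 and the scaffold Tjp1, with Cldn12 last.

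Cldn4, a claudin that limits the passage of sodium in many epithelia, stood at 241, 231 and 247 CPM in vehicle replicates 1, 2 and 3, at 6311, 6785 and 4898 CPM at 6 h and at 5346, 5586 and 5874 CPM at 12 h. All 6 PMA libraries lay far above the vehicle libraries, with PMA 6 h replicate 3 the lowest of the 6, and the ranges of 6 h and 12 h overlapped. The mean rose from 239.6 ± 8.51 to 5998 ± 982 CPM (SD, n = 3), which is 25.0-fold (log2 fold change 4.65 ± 0.11 SE, adjusted p = 1.1e-15, edgeR). A larger log2 fold change was found in 0.82% of all tested genes. Cldn4 took 0.0296% to 0.0319% of the reads in genes in vehicle, 0.446% to 0.596% at 6 h and 0.465% to 0.498% at 12 h.

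Its neighbour on the chromosome, Cldn3, another claudin that tightens the barrier, stood at 8.37, 8.59 and 11.9 CPM in vehicle replicates 1, 2 and 3, at 130.3, 125 and 117 CPM at 6 h and at 85.7, 109 and 80.5 CPM at 12 h. The 3 groups did not overlap, with 12 h between vehicle and 6 h. The rise at 6 h was 12.9-fold (log2 fold change 3.70 ± 0.14 SE, adjusted p = 1.8e-12).

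Cldn7, an epithelial claudin that binds Epcam, was close to undetected in vehicle, with 1, 2 and 4 reads in the 3 libraries, and had 70, 39 and 64 reads at 6 h and 31, 25 and 30 reads at 12 h. Its level was 0.0432, 0.0859 and 0.212 CPM in vehicle, 4.84, 2.86 and 3.70 CPM at 6 h and 2.11, 1.82 and 2.601 CPM at 12 h. All PMA libraries were above all vehicle libraries, and the 6 h libraries were above those of 12 h. The fitted log2 fold change at 6 h was 5.04 ± 0.50 (adjusted p = 6.8e-08, edgeR). From the reads alone the ratio was 35.6, with an exact Clopper-Pearson counting interval (95%) of 16.9 to 89.8. Its size hangs on vehicle replicate 3: without that library 3 vehicle reads were left, the ratio was 59.0 (interval 19.9 to 289) and the fitted value 5.72.

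Cldn1, the claudin needed for the water barrier of the epidermis, stood at 37.7, 46.2 and 63.7 CPM in vehicle replicates 1, 2 and 3, at 231, 228 and 214 CPM at 6 h and at 112, 112 and 91.5 CPM at 12 h. The vehicle libraries differed among themselves, with a coefficient of variation of 26.9%, yet the 3 groups did not overlap. The rise at 6 h was 4.56-fold (log2 fold change 2.19 ± 0.17 SE, adjusted p = 5e-07).

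Cldn12, a claudin without the usual PDZ-binding end that ties others to ZO proteins, had the smallest change at 6 h. It stood at 44.0, 43.8 and 53.7 CPM in vehicle replicates 1, 2 and 3, at 70.4, 70.9 and 79.4 CPM at 6 h and at 41.6, 41.7 and 39.4 CPM at 12 h, so that 6 h lay above both other groups and all 12 h libraries just below vehicle. The 6 h rise was 1.56-fold (log2 fold change 0.64 ± 0.10 SE, adjusted p = 1.1e-05). It depends on scaling: without normalization the log2 fold change was 0.11 and was not called (adjusted p = 0.34).

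Cldn9, a claudin known from the inner ear, had 0, 0 and 0 reads in the vehicle libraries, 2, 0 and 0 at 6 h and 0, 1 and 1 at 12 h. A count of 0 over the vehicle group allows up to 0.046 CPM (3 counts), and no fold is given because no group was above 3 counts. Such limits and the counting intervals cover counting error only.

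**Figure D1:**
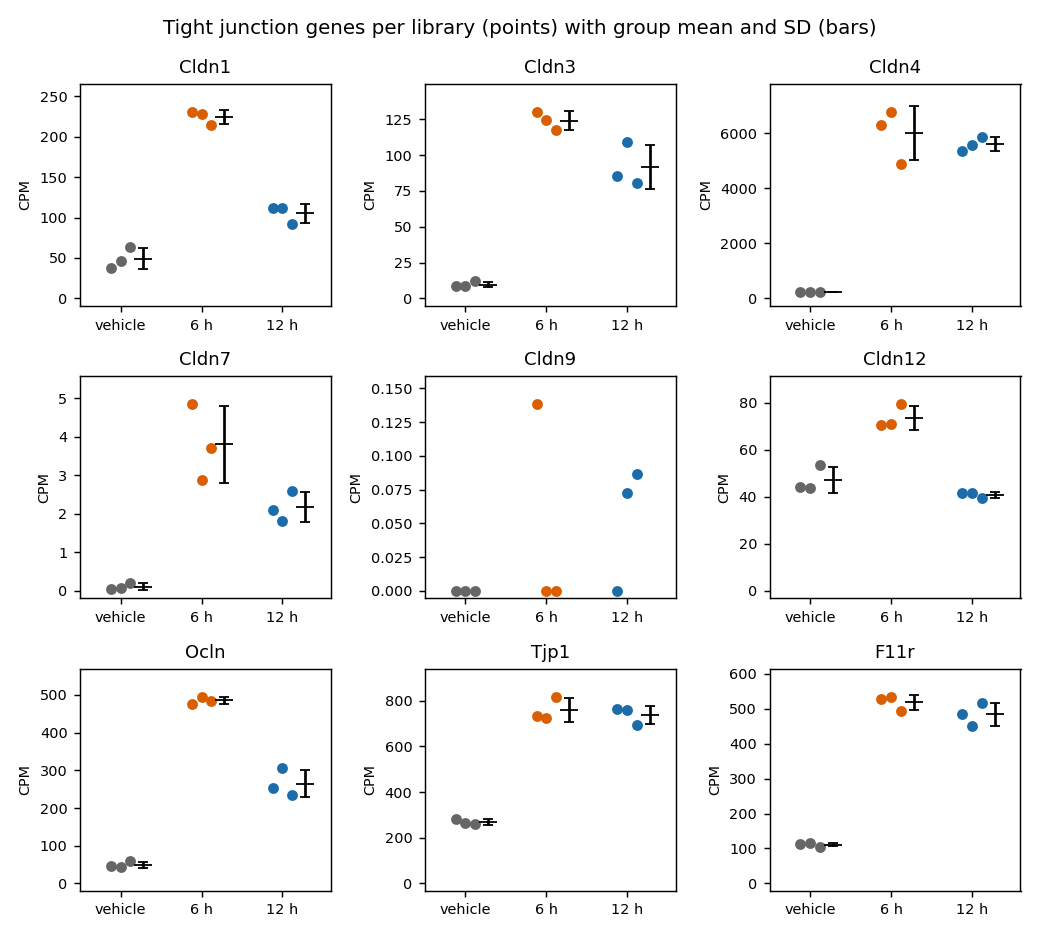
Level of each of the 9 tight junction genes (vertical axis, CPM, own scale per panel) in each vehicle, PMA 6 h and PMA 12 h library (points), with the group mean and SD as bars except for Cldn9, which had too few reads. Cldn4 lies at 231 to 247 CPM in vehicle and at 4898 to 6785 CPM at 6 h, and Cldn12 is the tested gene whose 12 h libraries all lie below vehicle.

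Occludin, which spans the membrane within the strands, stood at 45.6, 42.7 and 58.3 CPM in vehicle replicates 1, 2 and 3, at 477, 496 and 484 CPM at 6 h and at 254, 305 and 236 CPM at 12 h. The 6 h libraries lay close together, with a coefficient of variation of 1.96%, and the 3 groups did not overlap. The rise at 6 h was 9.94-fold (log2 fold change 3.32 ± 0.12 SE, adjusted p = 1.5e-12).

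F11r, the adhesion molecule JAM-A, stood at 113, 114 and 105 CPM in vehicle replicates 1, 2 and 3, at 528, 535 and 495 CPM at 6 h and at 484, 452 and 516 CPM at 12 h. All PMA libraries were above all vehicle libraries, and the 6 h and 12 h ranges overlapped. The rise at 6 h was 4.69-fold (log2 fold change 2.23 ± 0.08 SE, adjusted p = 4.6e-14).

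Tjp1, the ZO-1 scaffold, stood at 281, 265 and 259 CPM in vehicle replicates 1, 2 and 3, at 734, 723 and 818 CPM at 6 h and at 763, 758 and 694 CPM at 12 h. Here too the 6 h and 12 h ranges overlapped and both lay above vehicle. The rise at 6 h was 2.83-fold (log2 fold change 1.499 ± 0.08 SE, adjusted p = 9.3e-12).

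The second comparison asks how the genes stood after 12 h of PMA. Of the 8 tested members 7 were higher than in vehicle and 0 were called lower, where 37.7% of all tested genes were higher and 38.2% lower (75.8% in either direction). The libraries of 7 members lay wholly above vehicle and those of 1, Cldn12, wholly below, as did those of 38.7% and 40% of all tested genes (78.7% in either direction). The median log2 fold change of the 8 was 2.28, against -0.02 over all tested genes, or 2.13 without Cldn7, where 6 of 7 were higher. Both comparisons use the same vehicle libraries, so their values are only set side by side. Cldn4 stood at 5602 ± 264 CPM (23.4-fold; 4.55 ± 0.11, adjusted p = 1.7e-15). F11r stood at 484 ± 32.1 CPM (4.37-fold; 2.13 ± 0.08, adjusted p = 8.9e-14), and Tjp1 at 738 ± 38.3 CPM (2.75-fold; 1.46 ± 0.08, adjusted p = 1.5e-11). Tjp1, F11r and Cldn4 had no 12 h library in the range of vehicle. Cldn3 stood at 91.7 ± 15.1 CPM (9.52-fold; 3.26 ± 0.14, adjusted p = 8.4e-12) and Ocln at 265 ± 36.2 CPM (5.42-fold; 2.44 ± 0.12, adjusted p = 4.4e-11). Cldn1 stood at 105 ± 11.9 CPM (2.14-fold; 1.10 ± 0.16, adjusted p = 0.00012), the smallest fold of the 7 members that rose. Cldn7 stood at 2.18 ± 0.397 CPM (log2 fold change 4.23 ± 0.53, adjusted p = 1.2e-06), or 4.91 without vehicle replicate 3, where 3 vehicle reads were left and the counting ratio went from 20.05 (95% interval 9.32 to 51.4) to 33.3 (11.01 to 164.6). Cldn12 stood at 40.9 ± 1.31 CPM against 47.2 ± 5.66 CPM in vehicle (-0.20 ± 0.10, adjusted p = 0.072) and did not pass. It was called lower with upper-quartile scaling (-0.47), without normalization (-0.78) and without vehicle replicate 1 (-0.26).

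The third comparison asks what changed between 6 h and 12 h. Here 4 of the 8 tested members fell and 0 rose, where 25.8% of all tested genes were lower and 25.3% higher (51.1% in either direction). The 12 h libraries of 5 members (Cldn1, Cldn3, Cldn7, Cldn12 and Ocln) lay wholly below those of 6 h, as did those of 29.6% of all tested genes, with 28.5% wholly above (58% in either direction). Cldn1 fell by 1.09 ± 0.16 on the log2 scale (adjusted p = 0.00026, edgeR) to 46.9% of its 6 h mean. Ocln fell by 0.87 ± 0.11 (adjusted p = 1e-05) to 54.6%, and Cldn12 fell by 0.85 ± 0.10 (adjusted p = 2.3e-06) to 55.6%. Cldn3 fell by 0.44 ± 0.12 (adjusted p = 0.0077) to 73.9%. Cldn7 was at 57.2% of its 6 h mean, a log2 difference of -0.81 ± 0.36 that did not pass (adjusted p = 0.068) but did when the 6 PMA libraries were fitted alone (adjusted p = 0.036). The other 3 genes kept nearly all of their level: Cldn4 93.4% (-0.10 ± 0.10, adjusted p = 0.42), F11r 93.2% (-0.10 ± 0.07, adjusted p = 0.26) and Tjp1 97.3% (-0.04 ± 0.08, adjusted p = 0.69). A p that misses the threshold does not show that the level was the same, and Cldn4 was called lower without PMA 6 h replicate 3 (-0.22, adjusted p = 0.03). From the highest group mean to the lowest, the order was 6 h, 12 h and vehicle for the tested members other than Cldn12. Of these, Cldn4, Cldn7, Tjp1 and F11r did not pass the test between 6 h and 12 h. For Cldn12 the order was 6 h, vehicle and 12 h, and vehicle and 12 h did not pass.

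**Figure D2:**
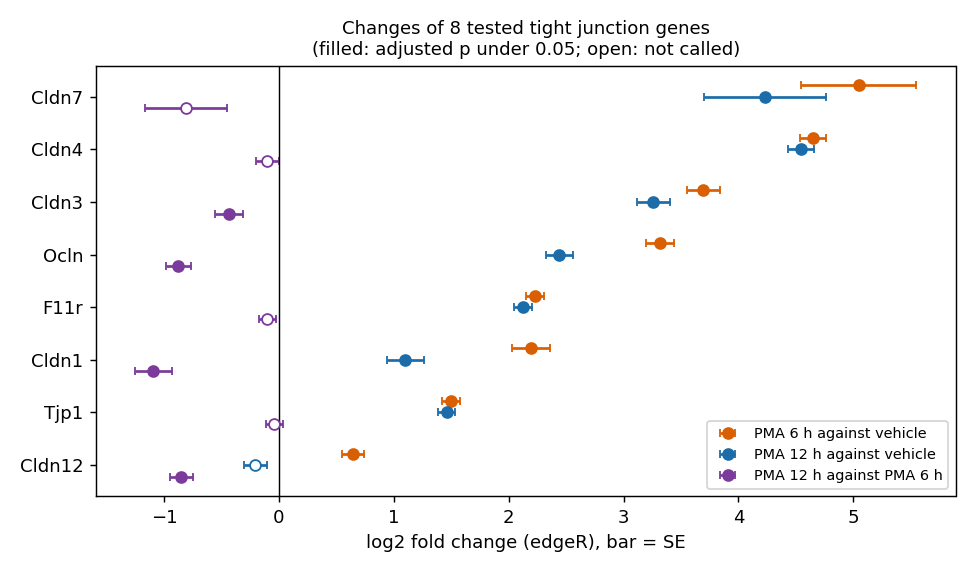
Log2 fold change (horizontal axis, edgeR, bar = SE) of the 8 tested tight junction genes in the 3 comparisons, filled where the adjusted p was under 0.05. Against vehicle the values run from -0.20 to 5.04, and between 6 h and 12 h the filled points are those of Cldn1, Cldn3, Cldn12 and Ocln.

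Among the vehicle libraries, replicate 3 held the highest level for 6 of the 8 tested members (Cldn1, Cldn3, Cldn4, Cldn7, Cldn12 and Ocln), and 39.2% of all tested genes were highest there. No call of a member at 6 h was lost by leaving out any single library, and the 6 h log2 fold changes then lay at 2.03 to 2.42 for Cldn1, 3.22 to 3.46 for Ocln and 4.55 to 4.76 for Cldn4.

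The claudin reads shifted toward Cldn4, a measure that does not depend on the scaling between libraries. Transcript lengths were not used here, so a share is compared only with that of the same claudin in another group. Cldn4 made up 72.8%, 70.0% and 65.6% of the reads of the 6 claudins in the vehicle libraries, 93.5%, 94.1% and 92.2% at 6 h and 95.7%, 95.5% and 96.5% at 12 h. Each PMA library had a larger Cldn4 share than each vehicle library. Cldn1 went from 14.1% ± 2.75 (SD, n = 3) in vehicle to 3.54% ± 0.449 at 6 h and 1.81% ± 0.270 at 12 h. Cldn12 went from 13.6% ± 0.548 to 1.17% ± 0.280 and 0.701% ± 0.0498. Cldn3 had a smaller share after PMA, 1.96% ± 0.242 and 1.57% ± 0.271 against 2.77% ± 0.349 in vehicle. A smaller share is not by itself a lower level. Cldn1, Cldn3 and Cldn12 were higher in CPM than in vehicle at 6 h, and Cldn1 and Cldn3 also at 12 h. For Cldn4, Cldn1, Cldn12 and Cldn3 both PMA groups lay wholly apart from vehicle in share. The exact permutation test gave p = 0.1 (two-sided), the smallest value that 3 libraries against 3 allow. The share of Cldn7 was 0.0318% ± 0.0222 in vehicle, 0.0604% ± 0.0179 at 6 h and 0.0372% ± 0.00586 at 12 h (exact permutation p = 0.2 and 0.8 against vehicle).

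**Figure D3:**
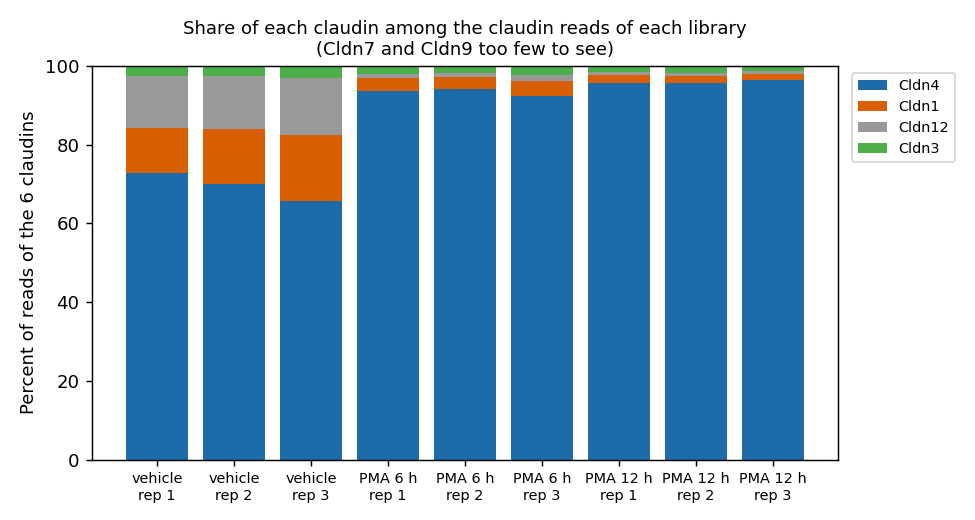
Percent of the reads of the 6 claudins (vertical axis) that fell on Cldn4, Cldn1, Cldn12 and Cldn3 in each of the 9 libraries (bars). Cldn4 takes 65.6% to 72.8% in vehicle and 92.2% to 96.5% in the PMA libraries.

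Other genes of the junction were followed in 8 lists, with 72 tested genes: 50 were higher and 13 lower at 6 h (69.4% and 18.1%), 56 higher and 10 lower at 12 h (77.8% and 13.9%), and 20 higher and 22 lower between 6 h and 12 h (27.8% and 30.6%). Over all tested genes these shares were 37.8% and 39% at 6 h, 37.7% and 38.2% at 12 h, and 25.3% and 25.8% between 6 h and 12 h, and the counts of each list below are to be read against them. The median log2 fold change of the 72 genes was 1.28 at 6 h and 1.20 at 12 h. These pooled counts and medians include Cldn15, Cldn17, Snai1, Zeb1 and Twist1, which passed the filter with the help of PMA libraries. Of these, Cldn15, Cldn17 and Zeb1 were called higher at 6 h, and all of them at 12 h. Pooled values without them were not computed, and the lists were chosen with earlier results of these data known.

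Of 19 other claudins with a row in the counts, 4 were tested, and all 4 rose at 6 h and at 12 h (medians 2.44 and 2.55). Cldn23 stood at 6.69, 7.69 and 7.01 CPM in vehicle, 101, 103 and 85.4 CPM at 6 h and 78.7, 75.8 and 77.9 CPM at 12 h, with no overlap between the groups (3.76 ± 0.11, adjusted p = 4.7e-15 at 6 h; 3.44 at 12 h). It fell by 0.32 from 6 h to 12 h (adjusted p = 0.0078). Cldn8 rose from a mean of 1.39 to 7.19 CPM at 6 h (2.39 ± 0.30, adjusted p = 1.3e-06). Cldn15 (2.45, adjusted p = 0.0028) and Cldn17 (2.43, adjusted p = 0.0035) rose from 13 and 16 reads over the vehicle group. The size of these low-count changes hangs on single libraries: at 6 h Cldn15 was at 3.44 without vehicle replicate 2 and Cldn17 at 3.90 without vehicle replicate 3, and at 12 h they went from 2.55 to 3.54 and from 2.55 to 4.02. Cldn15 and Cldn17 passed the filter with the help of PMA libraries, so that their direction was set by the filter. Without them 2 of 2 were higher, Cldn23 and Cldn8. Cldn6, the neighbour of Cldn9, and Cldn16, the neighbour of Cldn1, had 0 reads each over the vehicle group. At 6 h they had 11 and 7 reads, those of Cldn16 all from PMA 6 h replicate 3, and at 12 h 2 and 1, too few to test.

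Among tricellular and MARVEL genes 3 of 4 tested rose and 1 fell at both times (medians 1.98 and 1.52). Lsr, which marks the corners where 3 cells meet, rose 5.67-fold at 6 h (2.50 ± 0.08, adjusted p = 1.1e-14), Marveld3 4.95-fold (2.29) and Marveld2, the neighbour of Ocln, 3.17-fold (1.67), while Marveld1 fell by 2.05. From 6 h to 12 h Lsr fell by 0.84 (adjusted p = 7.8e-08). Marveld2 fell by 0.29 (adjusted p = 0.024), a call lost without PMA 6 h replicate 2 (-0.26) or 3 (-0.28) or PMA 12 h replicate 1 (-0.26) or 3 (-0.26).

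In the other JAM family 2 of 4 rose and 1 fell at 6 h (medians 1.02 at 6 h and 0.78 at 12 h). Cxadr, the coxsackievirus and adenovirus receptor, rose by 1.80 at 6 h and was at 2.25 at 12 h. Clmp rose by 1.46 at 6 h and by 1.07 at 12 h, where its call was lost without normalization (0.49). Jam3 stood at 6.73, 7.05 and 9.61 CPM in vehicle, 2.49, 2.20 and 2.08 CPM at 6 h and 9.87, 13.0 and 10.1 CPM at 12 h. Its 6 h libraries were the lowest, whereas F11r rose at 6 h. Jam3 fell by 1.78 at 6 h (adjusted p = 1.5e-06) and rose by 2.28 between 6 h and 12 h (adjusted p = 3.9e-07). Its excess over vehicle at 12 h (0.50, adjusted p = 0.032) was lost without vehicle replicate 1 (0.40) or 2 (0.43), without PMA 12 h replicate 2 (0.36) and with upper-quartile scaling (0.23), and turned without normalization (-0.0799). At 12 h 3 of the 4 were higher, or 1 without normalization.

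Of 11 tested scaffolds, 5 rose and 4 fell at 6 h (median 0.04), and 6 rose and 3 fell at 12 h (median 0.25; 6 fell without normalization). The shares at 6 h are near those of all tested genes. Tjp3, a ZO protein, rose by 1.90 at 6 h and was at 1.36 at 12 h. Magi3 (1.61 at 6 h, 2.19 at 12 h) and Amotl2 (1.52 and 1.78) rose, and from 6 h to 12 h Cgnl1, the cingulin relative, rose by 1.30 and Tjap1 by 0.97.

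Of 15 polarity genes 9 rose and 4 fell at each time, with medians of 0.46 and 0.53 (7 fell at each time without normalization, 6 at 6 h with upper-quartile scaling). Pard6b (3.43 at 6 h, 3.14 at 12 h), a part of the Par complex, Crb3 (2.76 and 2.67), of the Crumbs complex of the apical membrane, and Llgl2 (1.72 and 1.31), which acts on the basolateral side, rose, while Pard3b fell by 1.60 at 12 h.

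Of 12 adherens junction genes 10 rose and 1 fell at 6 h, and 11 rose and 1 fell at 12 h (medians 1.37 and 1.44). The count lower at 6 h was 2 under upper-quartile scaling or no normalization, and 2 when vehicle replicate 3 or the third PMA 6 h replicate was left out. The nectins Pvrl4 (3.45) and Pvrl2 (2.94), their partner afadin (Mllt4, 2.29) and beta-catenin (Ctnnb1, 2.24) had the largest rises of the list at 6 h. The nectin Pvrl1 went the other way, at -1.98 after 12 h, and fell by 1.33 between 6 h and 12 h.

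Of 9 claudin-binding membrane proteins and surface proteases 8 rose at 6 h and 9 at 12 h (medians 2.22 and 2.27). Epcam, which binds Cldn7, stood at 136, 132 and 132 CPM in vehicle, 904, 845 and 808 CPM at 6 h and 743, 718 and 792 CPM at 12 h, all PMA libraries above all vehicle libraries. It rose at 6 h (2.68 ± 0.08, adjusted p = 4.8e-15), as did the membrane protease matriptase (St14, 2.54). Prss8, the protease prostasin, rose by 2.38 at 6 h and by a further 1.11 to 12 h. Between 6 h and 12 h Epcam fell by 0.18 (adjusted p = 0.043), a small change whose call was lost with a replicate block (adjusted p = 0.071), with no filter (0.068) and with the 6 PMA libraries fitted alone (0.054). It was also lost when a single library was left out, namely PMA 6 h replicate 1 (-0.14) or 2 (-0.19), likewise for 12 h replicate 1 (-0.17) or 2 (-0.15), and for vehicle replicate 2 (-0.18).

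**Figure D4:**
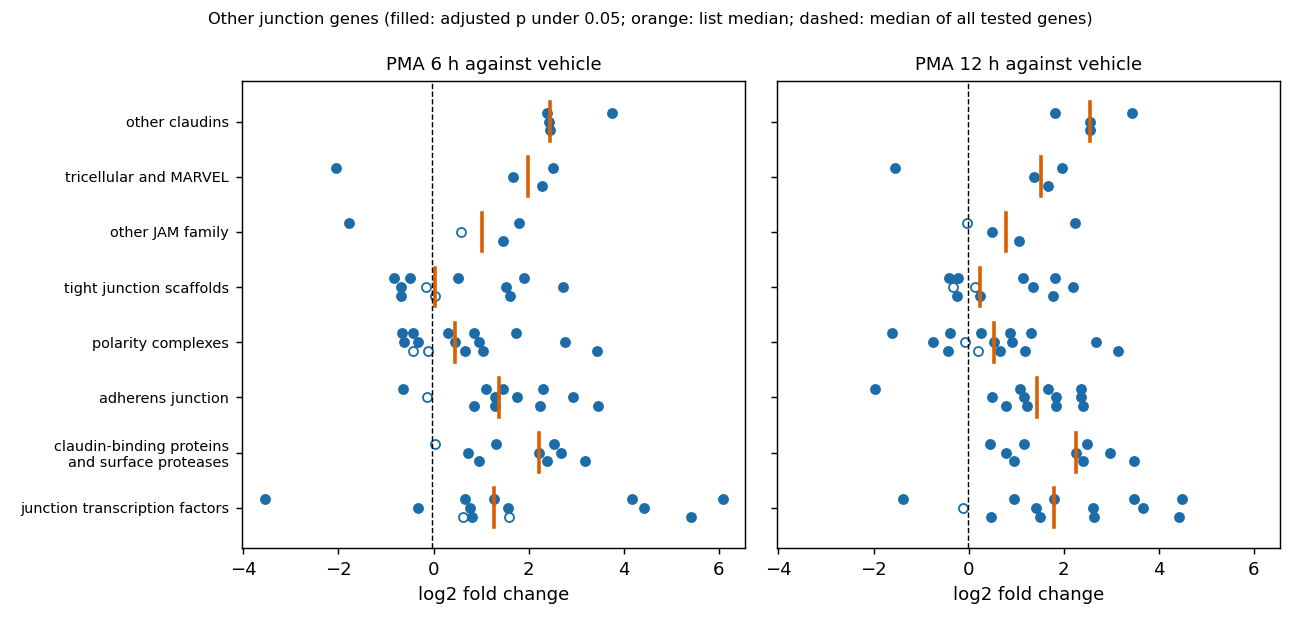
Log2 fold change (horizontal axis) of each tested gene of 8 junction lists (vertical axis) at 6 h and 12 h against vehicle, filled where the adjusted p was under 0.05, with each list's median in orange and the median of all tested genes dashed. The median of the scaffolds (0.04 at 6 h) lies near that of all genes, and that of the other claudins (2.44 at 6 h) to the right of it.

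The last list held transcription factors known for their action on epithelial junction genes, activators and repressors together. Of 13 tested, 9 rose and 2 fell at 6 h, and 11 rose and 1 fell at 12 h. Snai1, Zeb1 and Twist1 passed the filter with the help of PMA libraries, and without them 8 of 10 rose and 2 fell at 6 h, and 8 rose and 1 fell at 12 h. The medians of all 13 were 1.27 and 1.79. The count higher at 6 h was 6 without normalization. At 12 h the count higher was 9 under upper-quartile scaling, no normalization or the stricter filter. The count lower at 12 h was 2 under upper-quartile scaling, no normalization or no filter, and 2 when any 1 of vehicle replicate 2, vehicle replicate 3, the PMA 6 h replicates or PMA 12 h replicate 3 was left out. Grhl3, a Grainyhead-like activator of epithelial barrier genes, stood at 12.3, 13.1 and 14.3 CPM in vehicle, 563, 613 and 509 CPM at 6 h and 182, 165 and 157 CPM at 12 h. It rose 42.4-fold at 6 h (5.41 ± 0.10, adjusted p = 9.1e-17) and fell by 1.74 to 12 h. Grhl2, of the same family, was slightly lower at 6 h, with means of 57.8 CPM in vehicle and 45.8 CPM at 6 h (-0.34, adjusted p = 0.0022). At 12 h Grhl2 stood at 53.4 CPM and was not called against vehicle (-0.12, adjusted p = 0.24). Ovol1, a repressor of mesenchymal genes, stood at 5.91, 6.83 and 7.49 CPM in vehicle, 454, 489.6 and 419.7 CPM at 6 h and 169, 129.8 and 153 CPM at 12 h (6.08 ± 0.12, adjusted p = 2.4e-16 at 6 h). The epithelial ETS factors Ehf (4.42) and Elf3 (4.18) also rose at 6 h. The 3 groups of Grhl3, Ovol1 and Ehf did not overlap, with 6 h the highest, as for Ocln and Cldn1, while Elf3 stood at 877, 895 and 800.4 CPM at 6 h and 1110.2, 834 and 1088 CPM at 12 h.

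Snai2, which can repress junction genes through E-boxes like those printed above, stood at 36.3, 33.7 and 36.6 CPM in vehicle, 4.08, 2.72 and 2.31 CPM at 6 h and 11.8, 14.2 and 14.8 CPM at 12 h. It was lowest at 6 h and rose between 6 h and 12 h (2.17 ± 0.19, adjusted p = 7.9e-08). Zeb1, another such repressor, stood at 0.993, 1.504 and 0.319 CPM in vehicle, 2.56, 2.72 and 1.73 CPM at 6 h and 5.99, 5.16 and 6.59 CPM at 12 h. It thus stayed low but was highest at 12 h, and it rose from 6 h to 12 h (1.34 ± 0.37, adjusted p = 0.0054). Snai1, near the floor, had means of 0.185 CPM in vehicle, 0.587 CPM at 6 h (1.58, adjusted p = 0.08) and 1.18 CPM at 12 h (2.64, adjusted p = 0.0035). It had 12 reads over the vehicle group, and 10, 13 and 2 reads in the 6 h libraries. Snai1 passed the filter only through its PMA libraries, so its direction against vehicle was set by the filter. Zeb2 had 0 reads over the vehicle group, 0 at 6 h and 22 at 12 h, and was not tested. Of the 4 genes with a printed E-box, Ocln and Cldn3 fell between 6 h and 12 h while F11r and Cldn7 did not pass the test, and Cldn1 and Cldn12, without one, fell. Whether any of these factors acted on the junction genes was not tested.

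**Figure D5:**
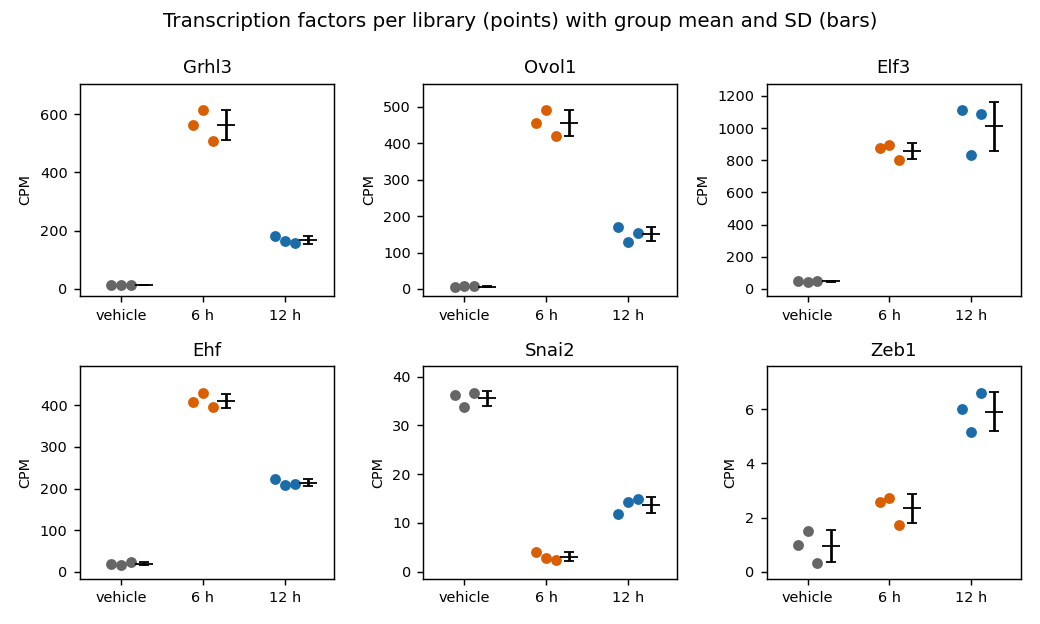
Level (vertical axis, CPM, own scale per panel) of the transcription factors Grhl3, Ovol1, Elf3, Ehf, Snai2 and Zeb1 in each library (points), with group mean and SD (bars). Snai2 is lowest at 6 h, at 2.31 to 4.08 CPM, where Grhl3, Ovol1 and Ehf are highest.

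Log2 CPM profiles over the 9 libraries, with a prior count of 2, were each centred on their own mean but not scaled to a common spread. The genes most alike in pattern were those with the smallest root mean square difference between profiles. For Cldn4 these were Plaur (0.137), the urokinase receptor gene, Csrnp1 (0.165) and Prss22 (0.203), and the group means of Plaur were 45.5 CPM in vehicle, 1109 CPM at 6 h and 1053 CPM at 12 h. For Ocln they were Fgfr1 (0.129), Crebrf (0.169) and Agpat9 (0.169), and for Cldn3 they were Hr (0.187), PVR (0.204) and the claudin Cldn23 (0.21). Cldn7 came closest to Tmcc3 (0.295), Ehf (0.302) and Dusp5 (0.304). With 7 reads over the vehicle group, the Cldn7 profile depends on the prior count. Cldn1 lay next to Pde8a (0.122), Cflar (0.149) and Hmox1 (0.151), and Cldn12 next to Plagl2 (0.0728), Pbx2 (0.0792) and Dctn4 (0.0838). Tjp1 lay next to Rragc (0.0615), Baiap2l1 (0.0645) and Gsk3b (0.0676), and F11r next to Sertad1 (0.0492), Gba2 (0.0567) and Glis2 (0.0771). None of the 8 tested members had another member among its 3 closest genes: between 9 genes (for Cldn7) and 5888 genes (for Cldn12) came closer to a member than its closest fellow member did. The distance counts the size of a change as well as its order over the groups. Members with the same order can thus lie far apart.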

How the data were processed

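Per the submitters' processing notes, reads were aligned to rn6 with STAR 2.7.5b. The gene annotation and counting options are not given in the sources used here. The deposited tables hold raw counts per gene symbol in an unstranded column, used here, and 1 column per strand. The 4 summary lines were left out. A deposited table with 9 sample columns of normalized values, whose names are not in the labels, was not used.

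Groups came from the sample titles. In R 4.3.3, edgeR 4.0.16 kept genes by filterByExpr (minimum count 10), scaled by TMM, and fitted 1 robust quasi-likelihood model with group as its only term to all 9 libraries. Calls are at an adjusted p under 0.05 (Benjamini-Hochberg, 10128 genes). SEs are the log2 fold change over the square root of F. The common coefficient of variation was 11.2%, and replicates differed by more than counting error (chi-square per degree of freedom 3.94 to 28.9). limma 3.58.1 and DESeq2 1.42.0 served as alternatives.

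The members and lists were chosen with earlier results of these data known. From each list at most 4 called genes per comparison, those of largest absolute log2 fold change, are named. Some of these genes are not reported here. Cldn6, Cldn16, Grhl2, Snai1, Twist1, Zeb2 and the markers are named outside that rule, with their values seen. Promoters and gene order are RefSeq's (GRCr8), and all 9 symbols matched.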

Additional observations from a re-analysis of the deposited data

Results flagged for a closer look

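The 12 h libraries differed from the 6 h libraries, by the test of 12 h against 6 h itself, for 4 of the 8 tested tight junction genes: Cldn1 (log2 difference -1.09, adjusted p = 0.00026 by edgeR), Cldn3 (-0.44, adjusted p = 0.0077), Ocln (-0.87, adjusted p = 1e-05) and Cldn12 (-0.85, adjusted p = 2.3e-06). All 3 libraries at 12 h lay below all 3 at 6 h for each of the 4 genes, as they did for 29.6% of all tested genes. PMA and time in culture cannot be told apart in this difference.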

How the results depend on the processing

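Of 453 refits of the 24 member fold changes, 444 kept direction and call, 1 lost its call, 5 gained one and 3 changed sign. The sign changes were all between 6 h and 12 h. Leaving out single libraries, Cldn4 ranged from -0.22 to 0.000839 and Tjp1 from -0.0708 to 0.0233 (also 0.00545 without PMA 12 h replicate 3). Of 1648 refits of named list genes, 22 lost their call and 1 changed sign (Jam3 at 12 h without normalization, -0.0799). Without normalization 2277 genes were higher at 6 h, and at 12 h 2120 were higher and 6021 lower. The median of all genes then shifted by -0.537 at 6 h and -0.58 at 12 h, or by -0.256 and -0.27 with upper-quartile scaling, and the share of higher calls went from 49.3% to 28% (38.5% with upper-quartile scaling) at 6 h and from 49.7% to 26% (38%) at 12 h. The 7 tested members other than Cldn12 kept their calls against vehicle under each scaling tried. Members called lower at 12 h against vehicle went from 0 to 1 (Cldn12) with upper-quartile scaling and without normalization, and ranged from 0 to 1 when single libraries were left out. The share of Cldn7 among claudin reads at 12 h minus vehicle ranged from -0.00406 to 0.0176 points when single libraries were left out. The sum of the strand columns, DESeq2, limma-voom and DESeq2 size factors changed no member's call. With the stricter filter Cldn7 was not tested. Shares per transcript length were not run. The cause of these shifts was not tested.

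The labels do not say what the replicate numbers mean. Deviations from the group means of same-numbered libraries correlated at -0.115 to 0.027 over 9 pairs, and those of other pairs at -0.0724 to 0.0875. In 4 of 18 cases a library correlated best with its own number in another group. With 3 libraries per group these values cannot show whether the libraries were paired. With a replicate block 3765 genes were higher and 3885 lower at 6 h, 8 members were higher at 6 h, 7 higher at 12 h and 4 lower between 6 h and 12 h, and no member's call changed. Depth limits Cldn7 and Cldn9, with 7 and 0 reads in vehicle.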
